A study of Mus musculus with 18 samples.

Results

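The KD-labelled BV2 line after 24 h of oxyhemoglobin was compared with the same line without treatment, across all genes. The members were the 6 libraries whose labels give the BAK1-KD line at 24 h or as control, 3 in each group, out of 18 libraries in the series. BV2 is an immortalized mouse microglial line. It was grown in DMEM with fetal bovine serum, plated, left to attach for 12 h, and then given oxyhemoglobin, the oxygen-carrying protein of blood, at a labelled dose of 10 mM, which is high for a protein and leaves its unit uncertain. RNA was sequenced from the KD-labelled line and from a line labelled NC, each after 12 h or 24 h of oxyhemoglobin and as a control (0 h), with 3 libraries a group.

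The labels do not spell out NC or KD, do not say how the KD-labelled line was made or whether it is 1 clone, and list no untreated library at 12 h or 24 h. Time in culture and oxyhemoglobin therefore cannot be told apart in any difference between 24 h and control. The labels do not tell whether the 3 libraries of a group stand for separate cultures, and a p-value here sets a difference against their spread alone, which may be technical. The title of the series names Bak1, microglial necroptosis and inflammation after subarachnoid hemorrhage, and this comparison asks what 24 h of oxyhemoglobin did in the KD-labelled cells.

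After bleeding into the brain, red cells lyse and release hemoglobin, and microglia, the resident macrophages of brain, take up hemoglobin and its heme. Heme oxygenase opens the heme ring and frees iron, which ferritin stores, while the transcription factor NRF2 drives genes that counter oxidants. Heme is also known to act on Toll-like receptor signalling in macrophages, upstream of NF-kB, MAP kinases and the inflammatory cytokines. BAK1 is a BCL2-family protein that makes pores in the outer mitochondrial membrane during apoptosis.

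Library totals ran from 4466642 to 5955346 counts at KD 24 h and from 4545042 to 5772212 counts in KD control, within the 4361313 to 6008810 counts of all 18 libraries. Over the 6 libraries, the first principal component of log2 CPM (counts scaled to a common library size with TMM factors) held 45.3% of the variance and put the KD 24 h libraries at 36.8 to 42 and the KD control libraries at -42 to -34.8. The second component, with 21.8%, set library 2 of both groups apart, at -36.7 for KD 24 h and -40.8 for KD control, against 15.6 to 23.1 for the other 4 libraries. Bak1 itself had 12, 2 and 2 counts in the KD 24 h libraries, against 2, 4 and 7 counts in the KD control libraries. The ranges overlap, and the ratio of count rates was 1.35 with an exact 95% interval of 0.607 to 3.04, which covers counting error only. The 3 NC 24 h libraries together held 6 counts of Bak1 and the 3 NC control libraries 6, so the label could not be checked at this depth and the line is called KD-labelled throughout. In the GENCODE M21 annotation 18.2% of the exon bases of Bak1 overlap Ggnbp1 on the other strand. Of the cell type markers, Spi1 held 4547 counts at KD 24 h and 4635 in KD control. Ptprc held 1865 counts at KD 24 h and 3175 in KD control, and the microglial gene P2ry12 held 0 counts at KD 24 h and 2 in KD control. Of the markers of other cell types, globin genes, Rbfox3, Snap25, Aqp4, Mog, Olig2, Col1a2 and Cd3e had no count in either group. Others had some: Tubb3 had 88 counts at KD 24 h and 82 in KD control. S100b had 81 counts at KD 24 h and 44 in KD control. Aldoc had 103 at KD 24 h and 202 in KD control, and Mbp 44 at KD 24 h and 87 in KD control.

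Of 15996 genes tested, 1534 passed an adjusted p of 0.05 between KD 24 h and KD control, which is 9.59% of them (edgeR quasi-likelihood test, Benjamini-Hochberg adjustment). Of these, 880 rose (5.5% of the genes tested) and 654 fell (4.09%). A change of at least 2-fold was fitted for 505 that rose and 381 that fell, and of at least 8-fold for 80 and 22. The median log2 fold change of all genes tested was -0.001. Protein-coding genes made up 694 of those that rose and 504 of those that fell. The library numbers behave as pairs in these 6 libraries, and with the number as a block 3433 of the 15996 genes passed, 1931 of them higher and 1502 lower. Block counts of lists in this comparison are to be read against these counts and not against 9.59%. When library totals replaced the TMM factors, the median of all genes moved to -0.091 and 45.6% of 1589 calls were higher, against 57.4% in the test with TMM factors.

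**Figure D1:**
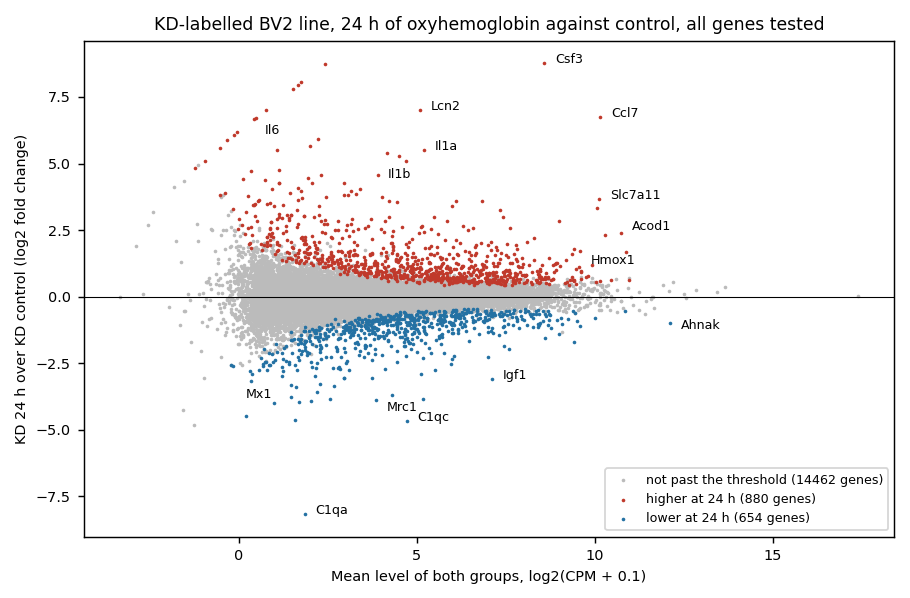
Each point is 1 of 15996 genes, with mean level on the x axis (log2 of TMM-scaled CPM plus 0.1) and the log2 fold change of KD 24 h over KD control on the y axis. The 880 genes that rose and the 654 that fell are coloured and the genes not past the threshold are grey.

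The 12 largest rises named by the rule were those of Csf3, Ccl7, Lcn2, Il1f9, Il6, Cxcl2 and Il1a, which encode secreted proteins, and of AC147806.2, Gm14275, Gm49164, Gm19026 and 4930438A08Rik. Levels below are TMM-scaled CPM, and fold changes are log2 of KD 24 h over KD control with standard errors. Csf3, which encodes the neutrophil growth factor G-CSF (chromosome 11, 98701263 to 98703629, GRCm38), stood at 964, 561 and 765 CPM in the KD 24 h libraries, against 0.851, 1.97 and 2.28 CPM in the KD control libraries. The groups were far apart, with a log2 fold change of 8.76 ± 0.43 (adjusted p = 2.91e-11). Ccl7, a chemokine that draws monocytes (chromosome 11, 82045712 to 82047525), stood at 2536, 1951 and 2274 CPM in KD 24 h, against 17.2, 20.4 and 25.5 CPM in KD control. Its log2 fold change of 6.74 ± 0.23 had an adjusted p of 5.41e-15. Lcn2, whose product lipocalin binds bacterial iron carriers, had 53.6, 34.8 and 112 CPM in KD 24 h, against 0.851, 0.456 and 0.207 CPM in KD control (7.0 ± 0.64). In each of these genes every KD 24 h library lay above every KD control library, which the rule that named them required. Of all genes tested, 14% did the same.

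Several of the largest changes had no or almost no counts in 1 group, so only a bound or a counting interval can be given. AC147806.2 had 151 counts over the 3 KD 24 h libraries and 0 in KD control, at least 55-fold higher when 3 counts are allowed over the control group. By the same bound, Gm14275 was at least 35.7-fold higher, Gm49164 at least 33.2-fold higher and Il1f9, a member of the interleukin-1 family, at least 29.5-fold higher in KD 24 h. On the falling side, C1qa had 0 counts in KD 24 h and 111 in KD control, at least 33.9-fold lower. Gm44620, with 3 counts in KD 24 h and 92 in KD control, was 28.1-fold lower with a counting interval of 9.3 to 139. Gm49164 shares 32.3% of its exon bases with Cbx3-ps6, and AC147806.2 has no entry in the GENCODE M21 annotation. Without a stated strand setting, reads of genes that overlap on opposite strands cannot be told apart.

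**Figure D2:**
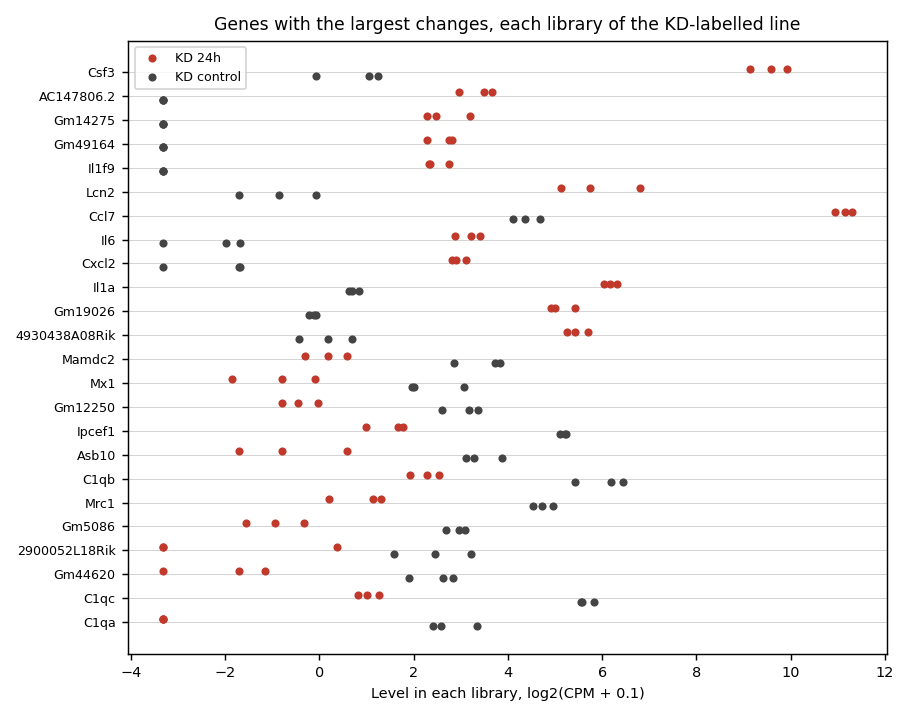
For the 12 largest rises and the 12 largest falls chosen by the rule for named genes, each point is 1 library on a log2 scale of CPM plus 0.1, with KD 24 h and KD control libraries in different colours. In none of these 24 genes do the 3 KD 24 h points overlap the 3 KD control points, which the rule required.

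Among cytokines, 9 of 15 tested members rose and 2 fell, with a median log2 fold change of 2.22 beside -0.001 for all genes. Il1a and Il1b encode interleukin-1, which starts inflammation in neighbouring cells, and Il1rn encodes its natural antagonist. Il1a had 79.8, 65.5 and 71.5 CPM in KD 24 h, against 1.70, 1.52 and 1.45 CPM in KD control (5.52 ± 0.33, adjusted p = 1.32e-10 by edgeR). Il1b had 29.3, 17.5 and 38.2 CPM in KD 24 h, against 1.70, 1.52 and 0.207 CPM in KD control (4.56 ± 0.37, adjusted p = 1.41e-08 by edgeR). Il1rn rose with them, to a mean of 40.2 ± 7.72 CPM in KD 24 h, against 3.40 ± 1.59 CPM in KD control (SD, n = 3 each). Il6, the fever and acute-phase cytokine, had 9.25, 7.29 and 10.4 CPM in KD 24 h, against 0.213, 0.152 and 0 CPM in KD control. Its counts were 132 and 2, a ratio of 72.1 with a counting interval of 19.6 to 602. Tnf averaged 15.3 ± 4.87 CPM in KD 24 h and 2.40 ± 1.29 CPM in KD control, a log2 fold change of 2.71 ± 0.38 (adjusted p = 2.38e-05 by edgeR). The 2 cytokines that fell were Csf1, the growth factor of macrophages, at -1.52 ± 0.20, and Il15, which sustains natural killer cells, at -2.19 ± 0.38.

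Of 13 chemokines tested, 7 rose and none fell, and the median was 0.71. Ccl3 and Ccl4, chemokines made by macrophages, averaged 1954 ± 391 and 892 ± 49.6 CPM in KD 24 h, against 193 ± 16.2 and 126 ± 10.9 CPM in KD control (SD, n = 3 each). Their log2 fold changes were 3.34 ± 0.23 and 2.83 ± 0.16. Ccl2, the main attractant of monocytes, had 111, 62.7 and 130 CPM in KD 24 h, against 13.8, 14.3 and 14.5 CPM in KD control (2.83 ± 0.30). Cxcl2, which attracts neutrophils, had 111 counts in KD 24 h and 2 in KD control, a ratio of 60.7 with a counting interval of 16.4 to 507. The interferon-linked chemokines Cxcl10 and Ccl5 did not pass the test: Cxcl10 had 1.05, 2.08 and 2.38 CPM in KD 24 h, against 1.06, 2.73 and 1.24 CPM in KD control. Summed over the list and per length, chemokines reached 14600, 12100 and 10400 TPM in KD 24 h, against 927, 1260 and 877 TPM in KD control. Cytokines summed to 1880, 1280 and 1340 TPM in KD 24 h, against 268, 239 and 239 TPM in KD control. In bulk RNA, a change in the share of cells that make a transcript and a change in RNA per cell cannot be told apart.

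The promoters of Il6 and Cxcl2 are shown because both genes were nearly silent in KD control and because each holds a match to the kB motif that NF-kB binds, searched as GGG, any 2 bases, then TTTCC. They are the 200 bases before the RefSeq start on GRCm38.p6, both on the plus strand, chr5:30012914-30013113 for Il6 and chr5:90903699-90903898 for Cxcl2, and were chosen after the values were seen. Capitals mark each match.
Il6: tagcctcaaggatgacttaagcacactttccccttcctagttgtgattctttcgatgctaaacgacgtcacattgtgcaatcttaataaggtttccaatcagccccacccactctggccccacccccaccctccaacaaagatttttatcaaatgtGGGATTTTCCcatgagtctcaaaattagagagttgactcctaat
Cxcl2: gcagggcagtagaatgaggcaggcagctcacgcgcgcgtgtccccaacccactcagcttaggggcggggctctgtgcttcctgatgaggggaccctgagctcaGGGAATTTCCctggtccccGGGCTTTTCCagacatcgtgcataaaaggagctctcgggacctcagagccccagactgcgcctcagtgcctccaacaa
The match of Il6 begins 44 bases before the start, and those of Cxcl2 97 and 78 bases before it. In the RefSeq table of promoters, which runs from 250 bases before to 50 after the start, 1.63% of 32851 windows held the motif on either strand, as did 3.1% of 709 windows of genes that rose and 1.27% of 552 windows of genes that fell. Among cytokines that rose 3 of 8 windows held it, as did the 1 window of those that fell and 4 of 17 over all members. Among chemokines 2 of 4 windows of those that rose and 4 of 14 over all members held it. A match is a run of letters, and binding was not measured.

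Intracellular inflammatory regulators and effector enzymes rose in part. Of 19 NF-kB subunits and feedback genes, 6 rose and none fell (median 0.45), and 7 rose and 1 fell with the block. The leading gene was Nfkbia, the inhibitor that NF-kB induces against itself. It had 170, 174 and 117 CPM in KD 24 h, against 56.4, 39.3 and 31.9 CPM in KD control (1.86 ± 0.21, adjusted p = 1.8e-06 by edgeR). The co-regulator Bcl3 rose by 1.81 ± 0.33 and Zc3h12a, an RNase that degrades cytokine messages, by 1.58 ± 0.22. Of 20 genes of MAP kinase feedback and AP-1, 10 rose and none fell (median 0.70). Dusp5, a phosphatase that switches off ERK, averaged 334 ± 44.5 CPM in KD 24 h and 56.5 ± 9.67 CPM in KD control (2.56 ± 0.23). Dusp2 and Ier3 rose by 1.62 ± 0.20 and 1.60 ± 0.23. The AP-1 subunit Fosl1 rose by 3.96 ± 0.50, but 57.2% of its exon bases overlap Ccdc85b. For Dusp5 the overlap is 22.1% with AC137853.2.

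Of 20 inflammatory enzymes and acute-phase proteins, 9 rose and 4 fell (median 1.34). Ptgs2, the inducible cyclooxygenase, had 273, 317 and 292 CPM in KD 24 h, against 30.4, 34.8 and 26.8 CPM in KD control (3.26 ± 0.18, adjusted p = 3.49e-11 by edgeR). Ptges, which makes prostaglandin E from the product of that enzyme, rose by 2.67 ± 0.20. Nos2, the inducible nitric oxide synthase, averaged 59.0 ± 9.26 CPM in KD 24 h and 9.48 ± 3.89 CPM in KD control (2.61 ± 0.29). Acod1, which makes itaconate, was among the most abundant of the risers, with 3110, 2528 and 2987 CPM in KD 24 h, against 577, 490 and 581 CPM in KD control. The matrix protease gene Mmp9 rose by 2.63 ± 0.27. Of the 4 that fell, Hp encodes haptoglobin, the plasma protein that binds free hemoglobin. It had 0.873, 1.88 and 0.237 CPM in KD 24 h, against 4.47, 4.10 and 4.77 CPM in KD control (-2.10 ± 0.40).

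Receptors moved in both directions. Of 24 cytokine and chemoattractant receptors, 7 rose and 4 fell (median 0.04). Ltb4r1, the receptor for the lipid attractant leukotriene B4, averaged 18.1 ± 1.44 CPM in KD 24 h and 1.17 ± 0.602 CPM in KD control (3.87 ± 0.36). The chemokine receptor Ccr1 rose by 2.51 ± 0.27. Cxcr4, the receptor for Cxcl12, had 3.67, 2.92 and 1.90 CPM in KD 24 h, against 25.7, 31.4 and 14.1 CPM in KD control (-3.04 ± 0.35, adjusted p = 2.4e-06 by edgeR). Csf1r, through which CSF1 and interleukin-34 keep microglia alive, fell by 1.45 on the log2 scale, with 15.1% of its exon bases in Hmgxb3. Of 21 pattern receptors and proximal signalling genes, 1 rose and 1 fell, a share near the 9.59% of all genes. Cd14, the co-receptor for endotoxin, rose by 1.27 ± 0.15. The adaptor gene Ticam2 fell by 0.86 on the log2 scale, with 14.5% of its exon bases in Tmed7. Of 17 antigen presentation genes, the costimulator Cd80 rose by 1.56 ± 0.25, and Psmb9, a subunit of the immunoproteasome, and Tap1, of the peptide transporter, fell by 1.03 and 1.01 on the log2 scale. Psmb9 and Tap1 each missed the threshold without library 2 of KD 24 h or library 1 or 3 of KD control, Psmb9 also without library 1 and Tap1 without library 3 of KD 24 h (adjusted p from 0.0572 to 0.161 by edgeR). With the block 11 cytokine and chemoattractant receptors were higher and 8 lower, and 3 pattern receptor genes were higher and 2 lower. Without library 3 of KD control 4 cytokine and chemoattractant receptors were higher and 3 lower.

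**Figure D3:**
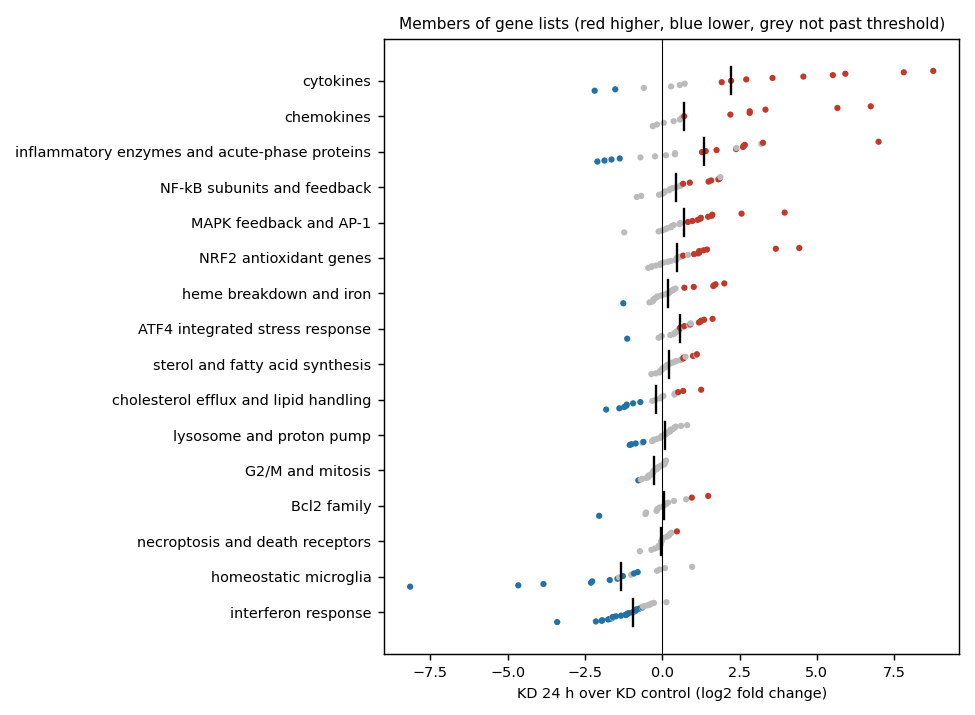
Each point is 1 tested member of 16 gene lists, placed by its log2 fold change of KD 24 h over KD control, with a black tick at the median of the list. Cytokines have the highest median of those named here (2.22), and homeostatic microglia and interferon response genes lie mostly below 0.

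Interferon response genes were lower at 24 h. Of 32 tested members, 21 fell and none rose, beside 4.09% of all genes falling, with a median log2 fold change of -0.95. Ifi27l2a, an interferon-induced mitochondrial protein gene, had 82.0, 83.8 and 68.2 CPM in KD 24 h, against 311, 279 and 322 CPM in KD control (-1.96 ± 0.18, adjusted p = 7.77e-08 by edgeR). Isg15, which encodes a ubiquitin-like tag, had 26.4, 22.9 and 19.5 CPM in KD 24 h, against 56.6, 43.9 and 50.0 CPM in KD control (-1.12 ± 0.19, adjusted p = 0.000324 by edgeR). In both genes every KD 24 h library lay below every KD control library, as in 13.4% of all genes tested. Rsad2, the antiviral enzyme viperin, fell by 1.70 on the log2 scale, Cmpk2, a nucleotide kinase gene, by 1.94, and the antiviral GTPase gene Mx1 by 3.40. Irf7, a transcription factor of the pathway, fell by 1.09 on the log2 scale. Summed per length, the list stood at 953, 957 and 747 TPM in KD 24 h, against 2230, 2440 and 2100 TPM in KD control. The Ifit, Mx and Oas genes are families of similar sequence, so the authors' counting may have split reads between members.

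The promoters of Isg15 and Ifit3, which fell, are shown because both hold the interferon element, searched on either strand as GAAA, any 2 bases, then GAAA. They are again the 200 bases before the RefSeq start on GRCm38.p6, chr4:156200819-156201018 on the minus strand for Isg15 and chr19:34583329-34583528 on the plus strand for Ifit3. Capitals mark the matches, which overlap in Isg15, and the choice was made after the values were seen.
Isg15: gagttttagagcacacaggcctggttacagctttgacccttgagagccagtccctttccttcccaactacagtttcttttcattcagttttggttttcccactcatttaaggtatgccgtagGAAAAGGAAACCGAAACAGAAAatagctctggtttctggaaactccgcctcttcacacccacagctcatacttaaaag
Ifit3: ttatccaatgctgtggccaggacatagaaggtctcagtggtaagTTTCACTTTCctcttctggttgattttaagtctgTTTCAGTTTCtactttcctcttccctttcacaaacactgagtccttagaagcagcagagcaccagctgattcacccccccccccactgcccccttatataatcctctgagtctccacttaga
The 3 matches of Isg15 begin between 78 and 66 bases before the start, and the 2 of Ifit3, on the reverse strand, begin 156 and 122 bases before it. The element was in 3.44% of all 32851 RefSeq promoter windows and in 7 of 16 windows of the interferon genes that fell, for which 14 of 21 genes were matched. Over all members, fallen or not, 19 of 33 windows held it.

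Genes that mark resting microglia were also lower. Of 16 homeostatic genes tested, 10 fell and none rose, with a median of -1.34, against 11 lower and 1 higher with the block. C1qb and C1qc, which with C1qa encode the complement starter C1q, were nearly lost: C1qb had 3.67, 4.79 and 5.70 CPM in KD 24 h, against 72.8, 42.7 and 87.1 CPM in KD control (-3.84 ± 0.35). C1qc had 1.92, 2.29 and 1.66 CPM in KD 24 h, against 56.4, 47.7 and 46.7 CPM in KD control (-4.66 ± 0.35, adjusted p = 4.6e-09 by edgeR). Mertk, a receptor for the uptake of dying cells, fell by 2.31 on the log2 scale and Trem2, a lipid-sensing receptor, by 1.28. Not every marker fell: Tmem119 had a fold change of 0.96 ± 0.32 and did not pass the test. Summed per length, the list stood at 435, 352 and 349 TPM in KD 24 h, against 1090, 969 and 982 TPM in KD control.

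Genes of scavenging, lipid export and other macrophage states split. Of 16 phagocytic and scavenger receptors, 3 rose and 3 fell, against 5 higher and 4 lower with the block. Msr1, a scavenger receptor for modified lipoproteins, averaged 292 ± 27.1 CPM in KD 24 h and 73.9 ± 9.02 CPM in KD control (1.98 ± 0.15), and the lectin gene Clec4d rose by 2.44 ± 0.36. The mannose receptor gene Mrc1 had 1.05, 2.08 and 2.38 CPM in KD 24 h, against 26.4, 22.9 and 30.9 CPM in KD control (-3.88 ± 0.44, adjusted p = 1.54e-06 by edgeR). Of 20 disease-associated microglia genes, 2 rose and 5 fell (median 0.06), against 5 higher and 6 lower with the block. Igf1, a growth factor gene, fell furthest of the 5, with 23.7, 34.0 and 29.2 CPM in KD 24 h, against 182, 306 and 252 CPM in KD control (-3.09 ± 0.27). Of 17 genes of cholesterol efflux and lipid handling, 3 rose and 7 fell (median -0.21), against 5 higher and 8 lower with the block. Apoe, the main lipoprotein of brain, fell by 1.82 on the log2 scale, and Abca1, the cholesterol exporter, stood at 272, 288 and 274 CPM in KD 24 h, against 713, 727 and 748 CPM in KD control. Of 10 alternative activation genes, Mrc1, Maf and Arg1 fell and the signalling inhibitor gene Socs3 rose by 2.06 ± 0.25, and the block called 3 higher and 3 lower. Arg1, the arginase of that state, had a fold change of -1.23 ± 0.33 (adjusted p = 0.018 by edgeR), and without library 3 of KD control or of KD 24 h it missed the threshold, at adjusted p of 0.14 and 0.101.

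Heme and iron genes rose in part. Of 24 members tested, 6 rose and 1 fell (median 0.18), against 6 higher and 3 lower with the block. Hmox1, heme oxygenase 1, had 1505, 930 and 1099 CPM in KD 24 h, against 394, 287 and 390 CPM in KD control (1.72 ± 0.27, adjusted p = 0.000125 by edgeR). Blvrb, a biliverdin reductase, rose by 1.65 ± 0.32. Fth1, the heavy chain of ferritin, had 2760, 1829 and 3972 CPM in KD 24 h, against 932, 705 and 1038 CPM in KD control (1.68 ± 0.31). The groups did not overlap for Hmox1 or Fth1, although the KD 24 h libraries of Fth1 spread widely. Slc11a2, an importer of divalent iron, rose by 2.01 ± 0.22 and Tfrc, the transferrin receptor, by 1.02 ± 0.22. The iron exporter gene Slc40a1 did not pass, with 88.2, 95.7 and 98.8 CPM in KD 24 h, against 82.1, 96.9 and 111 CPM in KD control, and overlapping groups. Steap3, an iron reductase, was the member that fell, at -1.26 ± 0.35, and no member fell when library 2 of KD control or any 1 of the KD 24 h libraries was left out.

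Of 27 antioxidant genes under NRF2, 10 rose and none fell (median 0.47). Slc7a11, the cystine importer that feeds glutathione synthesis (chromosome 3, 49892526 to 50443614), had 1641, 2335 and 2204 CPM in KD 24 h, against 127, 202 and 155 CPM in KD control (3.67 ± 0.24, adjusted p = 3.83e-10 by edgeR). Srxn1, which repairs oxidized peroxiredoxins, had 692, 491 and 651 CPM in KD 24 h, against 236, 184 and 254 CPM in KD control (1.45 ± 0.21). Prdx1 and Txnrd1, of the peroxiredoxin and thioredoxin systems, rose to 1334 ± 117 and 90.8 ± 6.80 CPM in KD 24 h, against 583 ± 56.5 and 44.6 ± 5.63 CPM in KD control (SD, n = 3 each). Nqo1, a quinone reductase often used to read NRF2 activity, was almost absent from these cells: 27 counts in KD 24 h and 1 in KD control gave a ratio of 29.5 with a counting interval of 4.86 to 1210.

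In the amino acid stress programme driven by ATF4, 8 of 23 tested genes rose and 1 fell (median 0.56), and with the block 14 rose and 1 fell. Chac1, which breaks down glutathione, averaged 44.3 ± 8.86 CPM in KD 24 h and 14.4 ± 2.93 CPM in KD control (1.63 ± 0.24). Mthfd2, a mitochondrial enzyme of one-carbon metabolism, rose by 1.23 ± 0.17 and the asparagine synthetase gene Asns by 1.25 ± 0.29. Ddit4, an inhibitor of mTORC1, was the member that fell, at -1.14 ± 0.23. Among 20 ER chaperones and unfolded protein response genes, Dnajb11 alone passed (0.63 on the log2 scale), and it missed the threshold whenever any 1 of the 6 libraries was left out, while 6 passed with the block.

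The lists of necroptosis, apoptosis execution and inflammasome genes had 1 call each, in 16, 16 and 17 genes, a share near the 9.59% of all genes. In the necroptosis list the riser was Cflar, a brake on caspase-8, at 0.47 on the log2 scale, and it missed the threshold without library 2 or 3 of KD 24 h or library 1 or 3 of KD control (adjusted p from 0.0614 to 0.0884 by edgeR). Ripk1, Mlkl and Casp8 had fold changes of -0.03 ± 0.17, -0.05 ± 0.46 and -0.12 ± 0.32, with overlapping groups, and the sign of each turned when libraries were left out. Ripk3, the kinase upstream of MLKL, had 0, 0 and 0.475 CPM in KD 24 h and 0 CPM in all 3 KD control libraries, too low to be tested. Of 13 BCL2-family genes, the protective Bcl2l1 had 48.5, 55.2 and 48.9 CPM in KD 24 h, against 21.5, 24.9 and 32.4 CPM in KD control (0.96 ± 0.18). Bcl2a1d rose by 1.48 ± 0.21, though it has near copies that share reads. The pro-death gene Bmf fell by 2.04 on the log2 scale. Mcl1 (-0.09 ± 0.15) and the pore former Bax (0.12 ± 0.28) did not pass, and Bax turned to -0.12 without library 2 of KD control. In apoptosis execution the riser was Cycs, the gene of cytochrome c, at 1.15 ± 0.26 (0.87 and no longer past the threshold without library 3 of KD 24 h). In the inflammasome list the ATP receptor gene P2rx7 fell, at -1.0 on the log2 scale. With the block the counts higher and lower were 1 and 1 for necroptosis, 2 and 1 for apoptosis execution and 1 and 4 for the inflammasome. Of all 15996 genes, the block called 1931 higher and 1502 lower.

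Lists of housekeeping, growth and metabolism differed in their share of calls, read against 9.59% of all genes, or 3433 of 15996 genes with the block. None of 24 ribosomal protein genes and none of 9 mitochondrially encoded genes passed, with medians of 0.10 and 0.18, and of 23 nuclear respiratory chain genes 1 rose, with 1 higher and 2 lower with the block. Of 26 genes of G2/M and mitosis, only Ccnb2, cyclin B2, fell, with 104, 84.4 and 76.0 CPM in KD 24 h, against 156, 143 and 154 CPM in KD control (-0.78 ± 0.19). Without library 3 of KD 24 h its adjusted p was 0.051 by edgeR. Top2a, the mitotic topoisomerase, had a fold change of -0.29 ± 0.15 (adjusted p = 0.274 by edgeR), but an adjusted p of 0.0339 with the block, which called 6 lower in this list. Of 27 replication genes 2 rose and 1 fell, and 1 rose in each fit that left out 1 library, while the block called 3 higher and 2 lower. Of 25 genes of sterol and fatty acid synthesis 4 rose, 8 with the block. Of 26 glycolysis and hypoxia genes 3 rose and 3 fell, against 9 and 5 with the block. Of 27 lysosome genes 4 fell, 2 without library 2 of KD 24 h, against 6 higher and 7 lower with the block.

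Some of the largest shifts in level lay outside these programmes. Cpd, which encodes a carboxypeptidase of the secretory pathway, had 2177, 1967 and 2069 CPM in KD 24 h, against 410, 403 and 438 CPM in KD control (2.31 ± 0.15). Ahnak, a giant scaffold protein, had 3172, 2861 and 2813 CPM in KD 24 h, against 6089, 5830 and 5790 CPM in KD control (-1.0 ± 0.14). Serinc3, a membrane protein gene, averaged 488 ± 38.4 CPM in KD 24 h and 1054 ± 87.2 CPM in KD control. The pseudogene Gm19026 and the gene 4930438A08Rik, named by clone in the files, rose by 5.40 ± 0.34 and 5.29 ± 0.32, while Ipcef1 fell, with 3.32, 1.88 and 3.09 CPM in KD 24 h, against 37.4, 34.3 and 36.7 CPM in KD control.

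Summed levels of cell type markers are given as measured, and their part in the results was not tested. In summed CPM, the ranges of KD 24 h and KD control do not overlap for the microglial, fibroblast and endothelial, oligodendrocyte and astrocyte markers. In summed TPM, the microglial and astrocyte ranges do overlap. Microglial markers stood at 301, 264 and 222 TPM in KD 24 h, against 271, 309 and 259 TPM in KD control. Astrocyte markers stood at 8.26, 10.7 and 6.86 TPM in KD 24 h, against 7.04, 9.56 and 4.79 TPM in KD control. Of all genes tested, taken singly, 14% had every KD 24 h library above every KD control library and 13.4% had every one below. Microglia and macrophage markers summed to 572 to 635 CPM in KD 24 h and 640 to 666 CPM in KD control, with counts for all 12 genes. Fibroblast and endothelial markers summed to 6.98 to 13.3 CPM in KD 24 h and 3.32 to 6.07 CPM in KD control, with counts for 4 of 7 genes and none for Col1a2, Dcn or Lum. Kdr among them rose by 1.59 on the log2 scale, and it missed the threshold without library 1 or 3 of KD control or library 3 of KD 24 h (adjusted p from 0.0638 to 0.102 by edgeR). Oligodendrocyte markers summed to 3.54 to 4.51 CPM in KD 24 h and 6.43 to 8.30 CPM in KD control, with counts for 4 of 6 genes. Astrocyte markers summed to 12.0 to 14.5 CPM in KD 24 h and 14.9 to 16.7 CPM in KD control, with counts for 3 of 6 genes. Among these, Aldoc had fewer counts at KD 24 h (103 against 202 in KD control) and S100b more (81 against 44). Neuron markers summed to 3.13 to 8.55 CPM in KD 24 h and 4.10 to 5.81 CPM in KD control, with counts for 1 of 6 genes, and erythroid markers to 2.85 to 6.88 CPM in KD 24 h and 6.38 to 7.59 CPM in KD control, with counts for 2 of 8. Neutrophil markers summed to 2.97 to 4.27 CPM in KD 24 h and 1.91 to 3.73 CPM in KD control, with counts for 3 of 6 genes, and T and B cell markers to at most 0.873 CPM in KD 24 h and 1.04 CPM in KD control.

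Whether the 24 h response of the KD-labelled line differed from that of the NC line was tested as the KD minus the NC response. Of 15996 genes 5 passed (0.0313%), 4 of them with a difference above 0 (0.025%) and 1 below 0 (0.00625%). The test had a median of -0.005 over all genes and 740 genes at an unadjusted p under 0.05. Its median standard error was 0.432, against 0.305 between KD 24 h and KD control. The count depended on the method. It was 193 with the number as a block, 38 with DESeq2, 33 without a filter and 16 with library totals. It was 8 with 5 CPM in 3 libraries, 5 with RLE factors, 4 with the compared groups alone and 1 without the libraries numbered 2. Trib3, a pseudokinase induced by ATF4 (chromosome 2, 152337422 to 152344032), had 182, 134 and 174 CPM in KD 24 h, against 77.9, 52.7 and 85.9 CPM in KD control. In the NC line it had 322, 188 and 246 CPM at 24 h, against 506, 350 and 468 CPM in control. The KD control libraries were thus the lowest, and the responses differed by 1.99 ± 0.34 on the log2 scale (adjusted p = 0.0252, edgeR with Benjamini-Hochberg adjustment). Aldh1l2, a mitochondrial folate enzyme, had 60.6, 52.5 and 59.1 CPM in KD 24 h, against 29.6, 20.6 and 19.7 CPM in KD control. In the NC line it had 59.5, 58.9 and 63.5 CPM at 24 h, against 80.3, 87.5 and 84.0 CPM in control, a difference of 1.77 ± 0.24 (adjusted p = 0.00173 by edgeR). For Aldh1l2 the lines overlapped at 24 h and were well apart in control, and 14.1% of its exon bases overlap D10Wsu102e, which held 63867 counts over the 18 libraries against 4624 for Aldh1l2.

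The other 3 genes had other patterns. Plau, the urokinase that activates plasmin, had 359, 280 and 316 CPM in KD 24 h, against 113, 110 and 138 CPM in KD control, and in the NC line 293, 286 and 295 CPM at 24 h, against 252, 234 and 239 CPM in control. The lines overlapped at 24 h, and the responses differed by 1.13 ± 0.21 (adjusted p = 0.0447 by edgeR). Serpinb1a, an inhibitor of neutrophil proteases, had 12.9, 11.1 and 10.9 CPM in KD 24 h, against 63.0, 68.2 and 108 CPM in KD control. In the NC line it had 120, 116 and 148 CPM at 24 h, against 271, 232 and 274 CPM in control, so it was lower at 24 h in both lines and the responses differed by -1.75 ± 0.29 (adjusted p = 0.0186 by edgeR). AC147806.2 had 7.68, 12.5 and 11.2 CPM in KD 24 h, against 0 CPM in all KD control libraries, and in the NC line 18.4, 19.1 and 17.8 CPM at 24 h, against 3.12, 3.12 and 3.05 CPM in control. Its fitted difference of 6.16 ± 0.81 (adjusted p = 0.00173 by edgeR) rests on the empty KD control group and is no measure of size. Without the libraries numbered 2, Trib3 passed and the other 4 genes did not, with adjusted p from 0.0611 to 0.162 by edgeR. With 1 library left out at a time, 2 to 10 genes passed: AC147806.2 and Aldh1l2 in each of these fits, while the other 3 missed the threshold in some. Plau (adjusted p up to 0.145 by edgeR) and Trib3 (up to 0.0829) missed it without library 1 or 3 of KD 24 h, 1 or 2 of KD control, 2 or 3 of NC 24 h, or 1 or 3 of NC control. Serpinb1a (up to 0.0829) missed it without any 1 of the KD 24 h libraries or library 3 of NC 24 h or of NC control.

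**Figure D4:**
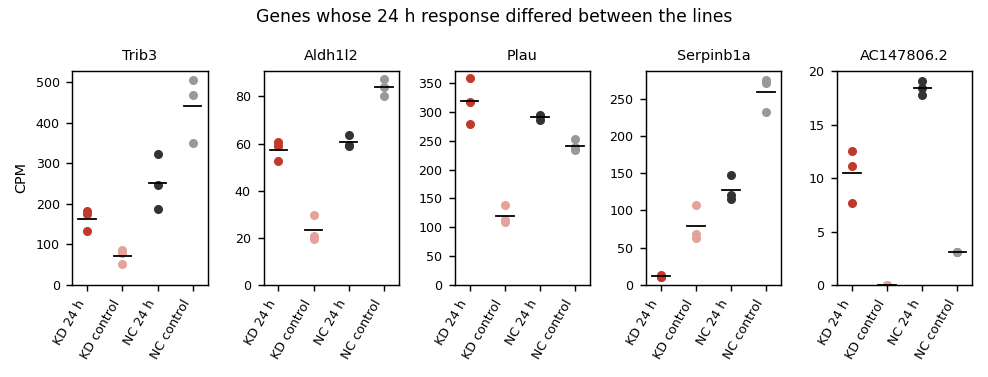
Each panel shows 1 of the 5 genes whose 24 h response differed between the lines, with TMM-scaled CPM of each library as a point and the group mean as a bar, in the order KD 24 h, KD control, NC 24 h, NC control. For Trib3 and Aldh1l2 the KD control libraries are the lowest, and for Serpinb1a the KD 24 h libraries are.

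Of the ATF4 list, 1 of 23 members passed in this test, Trib3, and 22 of 23 had a difference above 0. The median was 0.68, beside -0.005 for all genes tested. Other lists also leaned to 1 side: 16 of 20 genes of MAP kinase feedback and AP-1 were above 0 (median 0.33). So were 2 of 16 homeostatic microglia genes (median -0.45) and 0 of 9 mitochondrially encoded genes (median -0.38). With the number as a block 9 of 23 ATF4 genes passed, all above 0, beside 193 of all 15996 genes. Asns and Mthfd2 had differences of 1.48 and 1.15 that did not pass without the block. Summed per length, the list stood at 1690, 1510 and 1360 TPM in KD 24 h and 1390, 1270 and 1210 TPM in KD control, and in the NC line at 1710, 1630 and 1560 TPM at 24 h and 2250, 2310 and 2290 TPM in control. The sums of the lines are close at 24 h and apart in control. No test was run on the sums.

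The KD-labelled line was also set against itself at 12 h, a comparison that shares the KD 24 h libraries with the one above. Of 15996 genes, 684 passed (4.28%), 450 higher at 24 h (2.81%) and 234 lower (1.46%), with a median of -0.007, and with the block 1971 passed. Of 15 cytokines 4 were lower at 24 h than at 12 h and none higher, 7 with the block. Il1b had 29.3, 17.5 and 38.2 CPM at KD 24 h, against 299, 223 and 218 CPM at KD 12 h (-3.12 ± 0.26, adjusted p = 4.23e-07 by edgeR). Il1a averaged 72.2 CPM at KD 24 h and 394 CPM at KD 12 h, and the collagenase gene Mmp13 8.83 CPM at KD 24 h and 125 CPM at KD 12 h. Both interleukins were thus above control at 24 h and below their 12 h level. Cybb, the catalytic subunit of the phagocyte oxidase, had 403, 469 and 492 CPM at KD 24 h, against 1347, 1378 and 1492 CPM at KD 12 h (-1.63 ± 0.15).

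Of 32 interferon response genes, 17 were lower at 24 h than at 12 h and none higher (median -0.97), and Gbp2, a GTPase induced by interferon, had 0.698, 0.834 and 3.56 CPM at KD 24 h, against 89.4, 50.8 and 78.4 CPM at KD 12 h (-5.49 ± 0.46). Isg15 averaged 22.9 CPM at KD 24 h and 91.2 CPM at KD 12 h. The summed level of the list was 2260, 2150 and 886 TPM at 0, 12 and 24 h. Of 20 ER chaperone genes 11 were lower at 24 h than at 12 h and none higher (median -0.83), with sums of 1030, 2260 and 1160 TPM at 0, 12 and 24 h. With 1 library left out the interferon count was 14 to 17 and the ER count 6 to 10, against 24 and 17 with the block.

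Cell cycle genes ran the other way. Of 26 G2/M and mitosis genes, 22 were higher at 24 h than at 12 h and none lower (median 1.39), and of 27 replication genes 13 were higher and none lower (median 0.81). Top2a had 335, 346 and 265 CPM at KD 24 h, against 117, 115 and 106 CPM at KD 12 h (1.48 ± 0.15, adjusted p = 2.24e-06 by edgeR). The cohesin protector gene Sgo2a averaged 34.6 CPM at KD 24 h and 8.80 CPM at KD 12 h, and Bard1, the partner of BRCA1, 149 CPM at KD 24 h and 47.5 CPM at KD 12 h. H3c10, a replication-dependent histone gene with near copies, averaged 540 CPM at KD 24 h and 152 CPM at KD 12 h. The G2/M list summed to 1040, 379 and 775 TPM at 0, 12 and 24 h. For Sgo2a 35% of the exon bases overlap Kctd18.

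**Figure D5:**
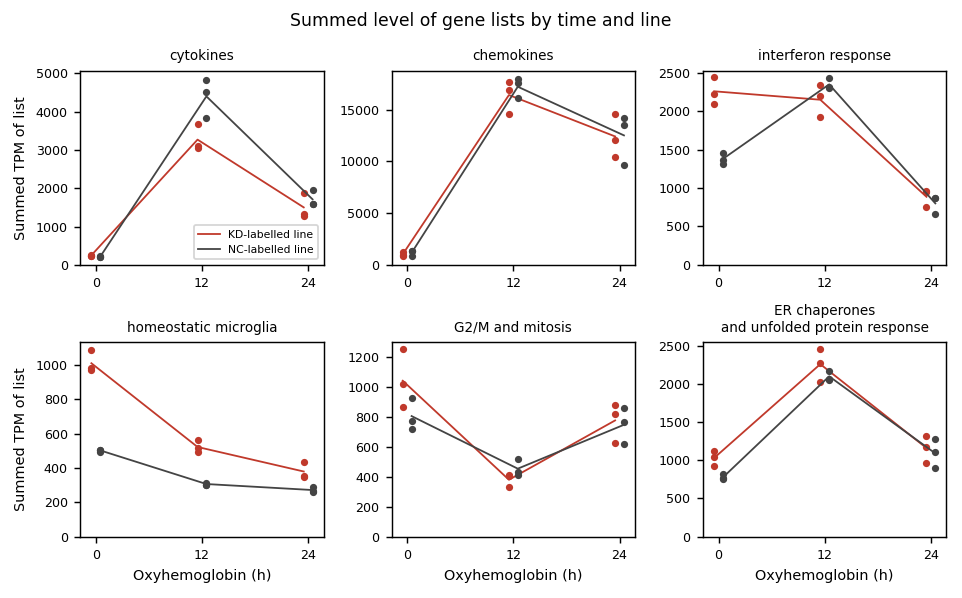
Summed TPM of 6 gene lists at 0, 12 and 24 h of oxyhemoglobin in the KD-labelled and NC lines, with each library as a point and a line through the group means. In the KD-labelled line interferon genes stand at 2260, 2150 and 886 TPM and G2/M genes at 1040, 379 and 775 TPM at 0, 12 and 24 h.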

How the data were processed

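RNA of 18 libraries from BV2 cells was sequenced from total RNA after tagmentation with a Vazyme kit, per the labels' protocols. Per the submitters' processing notes, the build was GRCm38 and the tools were featureCounts, DESeq2, bcl2fastq and HISAT2 2.2.0. The strand setting was not given in the sources used here. Counts were deposited as whole numbers per gene, not normalized. The deposited TPM matched those counts divided by gene length and rescaled, to within 4.888e-05. Positions came from GENCODE M21, which held 55141 of 55487 IDs, and promoters from RefSeq on GRCm38.p6. Groups and library numbers came from the titles.

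Counts were tested with edgeR 4.0.16 (limma 3.58.1, R 4.3.3), by quasi-likelihood with robust fitting on TMM factors and a filterByExpr minimum of 10. One fit of 6 group means held all 18 libraries, so that all groups shared the estimate of spread. The 15996 genes kept of 28940 with a count held 99.65% of all counts. Adjustment was Benjamini-Hochberg at 0.05, and the procedure was tested on simulated counts. The 3 comparisons were KD 24 h against KD control, the difference of the 24 h responses of the lines, and KD 24 h against KD 12 h. Library totals of 4361313 to 6008810 counts limit precision at low levels, and intervals and floors of 3 counts cover counting error only. Libraries of a group differed beyond counting noise (4.5 to 17.3 for chi-square over its degrees of freedom), and each was counted as 1 sample.

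Same-numbered libraries deviated from their group means together in KD 24 h and KD control (r = 0.203, 0.398 and 0.17 for numbers 1, 2 and 3) and in KD 24 h and KD 12 h (0.262, 0.38 and 0.26), so block values stand beside calls that they change and list counts that they move by over 1.5 times. What a number marks is not labelled. In every comparison the block fits 1 effect of a number over all 18 libraries and both lines. Alternatives were RLE factors, library totals, no filter, 5 CPM in 3 libraries, DESeq2 1.42.0, a replicate block, the compared groups alone, no library numbered 2, and each library left out.

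The 41 lists hold 783 genes, 631 of them tested, with 44 on more than 1 list. The comparison, its lists and its rule for names were chosen with earlier results of these data known. That rule named the 12 largest rises and 12 largest falls among called genes with at least 5 CPM and groups that did not overlap, the 10 largest differences of mean CPM in each direction, up to 5 called members of each list by lowest adjusted p, a fixed panel of death, inflammation and heme genes, and the 10 lowest adjusted p of the other comparisons. List members named outside it were chosen after their values were seen.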

Additional observations from a re-analysis of the deposited data

Results flagged for a closer look

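In 5 genes the 24 h response differed between the KD-labelled and the NC line, by the test of that difference across all genes (edgeR, Benjamini-Hochberg adjustment). The difference of log2 responses, KD minus NC, was 6.16 for AC147806.2, 1.99 for Trib3, 1.77 for Aldh1l2, 1.13 for Plau and -1.75 for Serpinb1a. Over 20 alternatives, the difference of AC147806.2 ran from 5.65 to 6.36, that of Trib3 from 1.82 to 2.21, that of Aldh1l2 from 1.66 to 1.98, that of Plau from 1.05 to 1.24 and that of Serpinb1a from -1.89 to -1.48. The value of AC147806.2 and its range rest on a KD control group with 0 counts and are no measure of size. Plau missed the threshold under 10 of these alternatives, Trib3 under 8, Serpinb1a under 6 and the other 2 genes under 1 each. Groups of 3 libraries are too small to look for single libraries that stand apart.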

How the results depend on the processing

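The calls between KD 24 h and KD control numbered 1100 to 1766 under 7 alternatives, against 1534, and 1086 to 1234 with 1 library left out. The replicate block, which fits 1 effect of a library number in both lines, gave 3433. All 1534 genes were among the 3433. For KD 24 h against KD 12 h, with 684 calls, the block gave 1971, the fit without the libraries numbered 2 gave 433, and leaving out 1 library gave 428 to 506. For the difference of the 24 h responses, with 5 calls, library totals gave 16, no filter 33, 5 CPM in 3 libraries 8, DESeq2 38, the fit without the libraries numbered 2 1, and leaving out 1 library 2 to 10. With the replicate block it gave 193, and 9 of 23 ATF4 list members passed, all higher. Within the NC line same-numbered libraries at 24 h and in control correlated at 0.228, 0.388 and 0.108, all over 0.1 as within the KD-labelled line. Across the lines, numbers 1, 2 and 3 correlated at 0.166, 0.372 and 0.095 at 24 h and at 0.273, 0.444 and 0.07 in control. The block assumes 1 effect of a number in both lines, and the fit without it assumes no effect of a number. The causes were not tested.

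Of 152 named genes tested between KD 24 h and KD control, 119 kept direction and side of the threshold under every alternative run. The sign turned in 5 genes that did not pass. Bard1, at 0.03, was -0.063 with library totals and -0.071 to 0.060 with 1 library left out. Without the libraries numbered 2, Mlkl was 0.11, Ripk1 0.030 and Casp8 0.014, and with 1 library left out they ran from -0.28 to 0.16, from -0.12 to 0.086 and from -0.30 to 0.090. Bax ran from -0.12 to 0.32. With the block, Top2a, Cybb, Gbp2 and H2ac10 also passed, all lower at KD 24 h than in KD control. Top2a and Cybb passed under the block alone. Of 14 alternatives, Gbp2 passed under 6 and H2ac10 under 8. Depth limits what can be said of Bak1, Ripk3, Nqo1 and Il6 in KD control, each with under 20 counts a group there.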

Other observations

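Among p53 targets and cell cycle brakes, 3 of 16 tested genes rose and 2 fell, with a median log2 fold change of 0.36 beside -0.001 for all genes tested. Plk2, a kinase that p53 induces, had 297, 237 and 269 CPM in KD 24 h, against 88.1, 101 and 84.8 CPM in KD control (1.55 ± 0.15, adjusted p = 2.84e-07 by edgeR). Mdm2, which marks p53 for breakdown, averaged 37.5 ± 7.61 CPM in KD 24 h and 19.4 ± 3.03 CPM in KD control (SD, n = 3 each). The cyclin-dependent kinase inhibitor genes Cdkn2c and Cdkn1b fell by 1.38 and 0.69 on the log2 scale. Cdkn1b missed the threshold without library 1 or 3 of KD 24 h or any 1 of the KD control libraries, at adjusted p from 0.0585 to 0.113 by edgeR. With the block 6 rose and 4 fell, and without library 3 of KD 24 h 4 rose and 1 fell. Of 20 ferroptosis genes 6 rose and 1 fell (median 0.26), and of 13 heat shock chaperones Hsph1 alone rose, at 0.97 ± 0.20, while 4 rose with the block.

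Histone genes outside the lists stood among the largest falls in level between KD 24 h and KD control. H1f5, a linker histone gene, had 532, 417 and 542 CPM in KD 24 h, against 942, 692 and 1171 CPM in KD control (-0.91 ± 0.23). Without library 2 of KD 24 h or library 3 of KD control H1f5 missed the threshold, at adjusted p of 0.0529 and 0.0667 by edgeR. H2ac8 had 195, 162 and 233 CPM in KD 24 h, against 679, 550 and 514 CPM in KD control (-1.57 ± 0.34). H1f5 averaged 497 CPM at KD 24 h and 159 CPM at KD 12 h. Histone genes have near copies that can share reads.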
